A study of Mus musculus with 30 samples.

Results

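The 2220 regions described here are Esrrb binding sites that the study's authors classed as Lost in mitosis and that lie far from any annotated gene start. They are 15.2% of the 14559 Esrrb peaks in the authors' deposited peak table. A peak was taken when its class was 4 or 5, its centre lay outside every gene of the authors' gene table, and the nearest transcription start was over 50 kb away. Class 4 gave 1100 of these peaks and class 5 gave 1120. The members were thus chosen by measured peak heights, since the authors' classes name the contrast of mitosis with interphase, and the height difference between those states is described below and is not tested. The remaining Lost peaks comprised 4506 outside genes within 50 kb of a start and 5853 inside genes. The peaks classed as Bookmarked comprised 329 far from a start, 914 near one and 737 inside genes.

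Esrrb is an orphan nuclear receptor that binds DNA as part of the network that keeps mouse embryonic stem (ES) cells self-renewing. Most transcription factors leave many of their sites when chromosomes condense at mitosis, and the sites at which a factor stays are called bookmarked. Binding sites far from gene starts often lie in enhancers, stretches of DNA that can act on a promoter over long distances and need not act on the nearest one.

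The cells were mouse ES cells of 129/Ola background grown in serum with LIF on gelatine. Nearly all came from EKOiE cells, in which the endogenous Esrrb gene is knocked out and an Esrrb transgene is switched on by doxycycline (DOX). Esrrb chromatin immunoprecipitation with sequencing (ChIP-seq) covered 4 mitosis libraries with DOX, 2 mitosis libraries after 48 h without DOX, 4 interphase libraries with DOX and 2 interphase libraries after 48 h without DOX. Mitotic cells were collected by shake-off, and asynchronous cultures stood for interphase. Replicate 2 of both DOX groups came from wild-type E14Tg2a cells, which carry no knockout, so those 2 groups mix genotypes. RNA sequencing covered EKOiE cells that also carry a Ccna-Gfp reporter and were sorted by its fluorescence into the early and late parts of G1 and into G2, after 24 h without DOX or with DOX, with 3 libraries for each phase and state. All RNA comparisons therefore set Esrrb-knockout cells without the transgene's inducer against the same cells with it. Nothing in the labels says that replicates are separate cultures, and each p-value therefore covers the spread among these libraries only, which may be technical.

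The ChIP libraries held 10.7 to 67.5 M reads (M, 1000000). The RNA libraries held 11.1 to 31.8 M exonic reads. Esrrb itself averaged 162 ± 27.2, 165 ± 7.21 and 190.2 ± 6.67 counts per M counted reads (CPM) in early G1, late G1 and G2 after withdrawal, against 242 ± 37.8, 317 ± 28.3 and 273 ± 27.0 CPM with DOX (SD, n = 3 each). All 3 means were lower after 24 h without DOX, and the transcript was still present. The sum of 8 ES cell markers lay between 3595 and 4958 CPM after withdrawal and between 4079 and 5373 CPM with DOX, while the defining markers of trophoblast summed to at most 2.10 CPM and those of fibroblasts to at most 1.89 CPM. The mesendoderm markers summed to 2.47 to 4.12 CPM after withdrawal and 2.44 to 3.96 CPM with DOX, and the neural markers to 51.04 to 73.1 CPM after withdrawal and 39.5 to 70.4 CPM with DOX. Their part in the results was not tested. Fewer cells of a type and less RNA per cell cannot be told apart in these bulk libraries.

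Among the far Lost peaks, the more crowded places included 3 stretches between genes on chromosomes 12, 6 and 18, taken up again below. The stretch on chromosome 6, with 8 peaks between Nrf1 and Ube2h, shares its flanking genes with the miR-183, miR-96 and miR-182 genes in RefSeq's GRCm38 table. MicroRNAs pair with target messenger RNAs mainly through their seed, bases 2 to 8. The 5p mature sequences from RefSeq (GRCm38.p6, chromosome 6) are printed because these 3 microRNAs are the named transcripts of the stretch with a known mature product, and the capitals mark the seed.
mmu-miR-183-5p: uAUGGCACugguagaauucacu
mmu-miR-96-5p: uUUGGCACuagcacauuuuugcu
mmu-miR-182-5p: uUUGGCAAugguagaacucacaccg
The seeds of miR-183 and miR-96 share 6 of 7 bases, those of miR-182 and miR-96 share 6 of 7, and those of miR-182 and miR-183 share 5 of 7. Small RNAs were not measured here. The peaks are placed on the mm9 build and the RefSeq table on GRCm38, so whether a peak overlaps one of the microRNA genes was not determined.

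The far Lost peaks lay a median of 113 kb from the nearest gene start, with quartiles at 73.7 and 204 kb and a maximum of 2491 kb. Of them, 969 (43.6%) lay 50 to 100 kb away, 680 lay 100 to 200 kb away, 432 lay 200 to 500 kb away, 102 lay 500 to 1000 kb away and 37 lay farther still. They were nearly evenly split around the gene they were closest to, with 1157 (52.1%) upstream of its start and 1063 downstream. A gene's end could be much closer than its start: 488 peaks (22.0%) had some gene edge within 50 kb, 93 (4.19%) within 10 kb, and the closest edge was 0.158 kb away. At the boundary set by the rule, the closest peaks kept lay 50.0085 kb from Fcgr1, 50.0185 kb from Asns and 50.0905 kb from Lmnb1, with mean interphase heights with DOX of 3.20, 1.06 and 1.91. The closest left out lay 49.9635 kb from Tmem132d, 49.9125 kb from Il17b and 49.9075 kb from Sox1, with 1.36, 1.37 and 0.71.

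Chromosomes 2, 5 and 12 held the highest numbers of far Lost peaks, with 172, 155 and 146. The share of a chromosome's Lost peaks that lay this far from genes was 29.6% on chromosome 12, 29.5% on chromosome 13 and 24.6% on the X chromosome, where 73 lay. It was 10.8% on chromosome 19 and 9.58% on chromosome 7, with 38 and 80. Of the 2549 peaks of any class that were this far from genes, 87.1% were Lost, against 83.1% of 5420 near ones and 88.8% of 6590 inside genes. Within the Lost peaks, class 5 made up 50.5% of the far ones, 41.7% of the near ones and 50.6% of those inside genes.

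Far Lost peaks were a median of 900 bp wide, with quartiles at 600 and 1200 bp, whereas the near and the intragenic Lost peaks both had a median of 750 bp and the far Bookmarked peaks one of 1350 bp. Class 4 peaks had a median of 750 bp and class 5 peaks one of 1050 bp. All peak widths in the table were multiples of 150 bp, so small differences of width are coarse. Other Esrrb peaks were also farther off. The median distance to the nearest one was 30.4 kb for far Lost peaks, against 12.3 kb for the near and 14.4 kb for the intragenic ones. The far Bookmarked peaks were much like the far Lost ones in this, at 34.7 kb. Another peak lay within 12.5 kb of 750 far Lost peaks (33.8%) and of 34.0% of far Bookmarked peaks. The near and intragenic Lost peaks had 50.4% and 47.0%. A Bookmarked peak lay within 12.5 kb of 121 far Lost peaks (5.45%) and of 11.6% of far Bookmarked peaks. The median distance to the nearest Bookmarked peak was 321 kb for far Lost and 316 kb for far Bookmarked peaks. It was 157 kb and 173 kb for the near and intragenic Lost peaks.

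Peak height is given below as log2 of reads per kb of peak per M reads in the library, as the authors deposited it, so a difference of 1 is a 2-fold difference. The median height of the far Lost peaks was -1.03, -0.57, -0.62 and -0.61 in the 4 mitosis libraries with DOX, and 0.82, 1.81, 1.38 and 2.32 in the 4 interphase libraries with DOX. After withdrawal it was -2.48 and -1.09 in the mitosis libraries and -2.58 and -1.28 in the interphase libraries. The interphase libraries with DOX therefore stood above all others, and the mitosis libraries with DOX stood above both withdrawn libraries of either state. The reads behind these heights were few in some libraries: a peak held a median of 25, 42, 29 and 20 reads in the mitosis libraries with DOX, 3 and 23 in the withdrawn mitosis libraries, 100, 130, 92 and 51 in the interphase libraries with DOX, and 4 and 14 in the withdrawn interphase libraries. In the first withdrawn library of mitosis 414 peaks (18.6%) and in that of interphase 291 peaks (13.1%) held no read at all. The authors' tables give such a peak the height of 0.9 read.

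**Figure D1:**
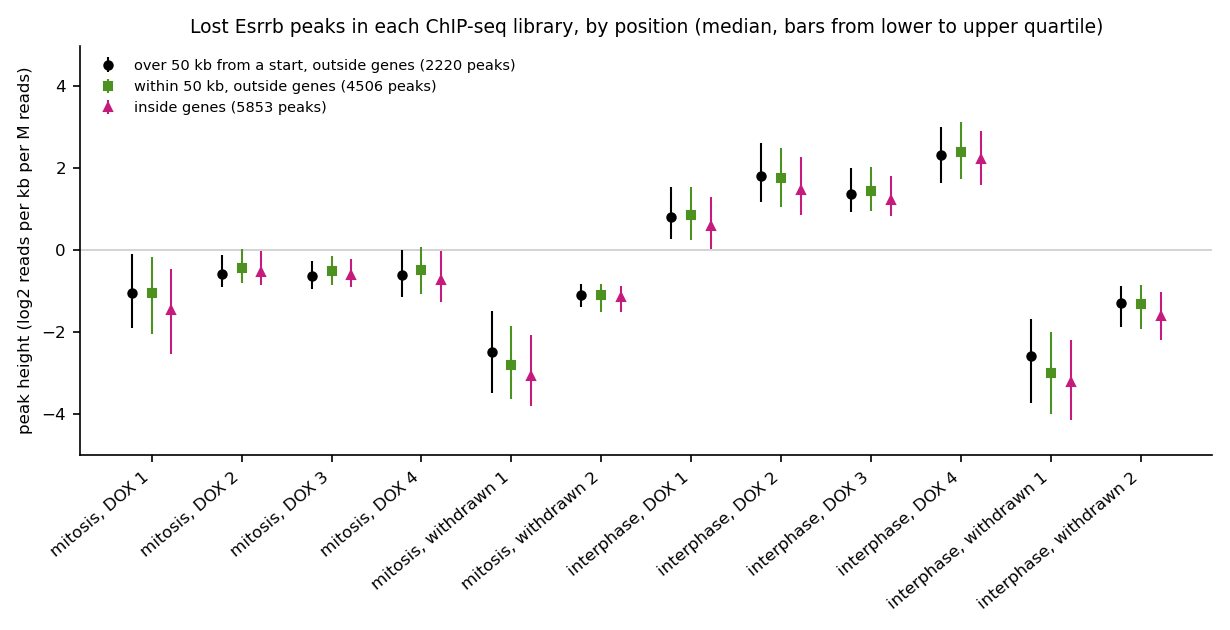
Median height (log2 reads per kb per M reads) of the Lost peaks far from genes, near genes and inside genes in each of the 12 ChIP libraries; points are medians over peaks and bars reach from the lower to the upper quartile. The far Lost peaks had medians of -1.03 to -0.57 in mitosis with DOX, 0.82 to 2.32 in interphase with DOX and -2.58 to -1.09 in the withdrawn libraries.

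With DOX, mitosis heights were lower than interphase heights at all 2220 peaks when averaged over the 4 libraries of each state, which is the contrast the classes name. The median difference was -2.37, the quartiles were -2.75 and -2.01, and single peaks ranged from -4.29 to -0.13. By replicate number the median difference was -1.93, -2.39, -2.07 and -2.99, and it was negative at 2217, 2217, 2220 and 2199 peaks. The near Lost peaks had a median of -2.33, the intragenic ones -2.30 and the far Bookmarked peaks -1.25. Class 4 and class 5 differed little in this difference, with medians of -2.33 and -2.40, but class 4 stood higher in both states. Class 4 peaks had a median of -0.14 in mitosis and 2.15 in interphase, and class 5 peaks one of -1.18 in mitosis and 1.14 in interphase. No class 5 peak reached the class 4 median in mitosis, whereas 23 (2.05%) did so in interphase. Height in mitosis and height in interphase had a Spearman correlation of 0.74 across the 2220 peaks, which share libraries and widths.

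The wild-type cells stood at the top of the mitosis libraries and in the middle of the interphase libraries. The E14Tg2a library had a median of -0.57 in mitosis, against -1.03 to -0.61 in EKOiE libraries with DOX, and of 1.81 in interphase, against 0.82 to 2.32. At 1141 far Lost peaks (51.4%) in mitosis and at 1559 (70.2%) in interphase its value lay between the lowest and highest EKOiE value. The spread between libraries was wide: the SD between the 4 libraries with DOX had a median of 0.45 in mitosis and 0.76 in interphase.

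Height with DOX varied little with distance beyond 50 kb. In bins of 50 to 100, 100 to 200, 200 to 500, 500 to 1000 and over 1000 kb, the median height with DOX was -0.77, -0.75, -0.72, -0.73 and -0.75 in mitosis and 1.53, 1.51, 1.63, 1.65 and 1.89 in interphase. The last bin held 37 peaks. After withdrawal the medians over the same bins were -1.83, -1.88, -1.64, -1.36 and -1.33 in mitosis and -2.06, -2.05, -1.92, -1.63 and -1.45 in interphase, so the withdrawn libraries read highest in the farthest bin. The share of peaks that were Lost stayed between 82.2% and 88.5% in all bins. Across the 2220 peaks, Spearman's correlation of interphase height with DOX was 0.02 with distance and -0.24 with width.

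**Figure D2:**
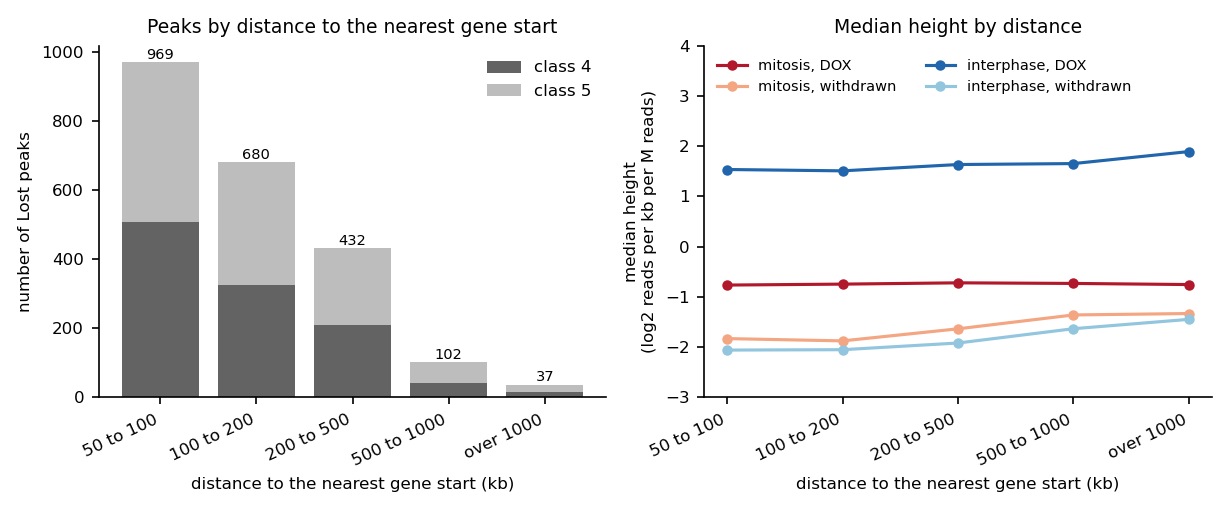
Far Lost peaks by distance to the nearest gene start (kb). The first panel gives the number of class 4 and class 5 peaks in each bin, 969 in the nearest and 37 in the farthest; the second gives the median height (log2 reads per kb per M reads) of each ChIP group, with interphase with DOX at 1.51 to 1.89 in every bin.

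Withdrawal of DOX asks how much of each peak depends on Esrrb. In interphase, all 2220 far Lost peaks were higher with DOX than after withdrawal (limma with trend over all 14559 peaks, Benjamini-Hochberg adjusted p below 0.05), beside 99.6% of all peaks. The median difference was 3.65 with a median SE of 0.72, and single peaks ranged from 1.8 to 6.62; near and intragenic Lost peaks had medians of 3.76 and 3.83. All 4 libraries with DOX stood above both withdrawn libraries at 2212 peaks (99.6%), beside 99.4% of all peaks. The heights with DOX entered the classes, so these counts and those in mitosis are a description beside all peaks. The whole table shared the difference, with a median of 3.74 over all peaks in interphase and 1.33 in mitosis. With each library centred on its own median over all peaks, the far Lost peaks had a median difference of -0.01 in interphase, where 45 were called higher, and -0.34 in mitosis.

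In mitosis the same comparison called 225 far Lost peaks higher with DOX (10.1%), against 22.4% of all peaks, 15.4% of near Lost peaks, 12.1% of intragenic Lost peaks and 78.1% of far Bookmarked peaks. At an unadjusted p below 0.05 the count was 595 (26.8%), beside 40.4% of all peaks, 36.6% of near Lost and 29.1% of intragenic Lost peaks. No peak was called lower. The median difference was 1.05, with single peaks between -0.75 and 3.39. A higher mean with DOX was seen at 2168 far Lost peaks, beside 14387 of all 14559 peaks. Near Lost, intragenic Lost and far Bookmarked peaks had medians of 1.29, 1.22 and 2.01. All 4 mitosis libraries with DOX stood above both withdrawn ones at 890 far Lost peaks (40.1%), beside 47.4% of all peaks. Of the 225 peaks, 224 were class 4 (20.4% of class 4). The share called was 12.5%, 10.3%, 6.48%, 4.90% and 2.70% over the 5 distance bins from nearest to farthest. The call rested on the first withdrawn mitosis library, whose peaks held a median of 3 reads: without it no far Lost peak was called, without the second withdrawn one 796 were. Leaving out mitosis library 2, 3 or 4 with DOX gave 58, 100 and 27, leaving out interphase library 2 or 4 with DOX gave 113 and 392, and leaving out both E14Tg2a libraries gave 14. The edgeR test on the recovered reads called 0, as did adding 0.5 to the linear height and centring on the library medians.

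After withdrawal, the heights of mitosis and interphase could be compared without the signal that set the classes. The limma fit called 0 of the 2220 peaks in either direction, beside 0.0% of all peaks, and edgeR's test also called 0. At an unadjusted p below 0.05 in the limma fit the count was 21 (0.946%), beside 0.742% of all peaks. The median difference, mitosis minus interphase, was 0.22 for all far Lost peaks, 0.03 for class 4 and 0.42 for class 5. The 2 libraries in each group, 1 of them with few reads per peak, limit what this comparison can resolve.

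The far Lost peak with the highest interphase height lay 138 kb downstream of Mycn, which encodes a Myc-family transcription factor (mm9 chr12:12810301-12811050). It stood at 0.14, -0.17, 0.33 and 0.62 in the mitosis libraries with DOX and at 3.06, 4.50, 3.78 and 4.94 in the interphase libraries with DOX. After withdrawal it stood at -1.22 and -0.71 in mitosis and at -1.15 and 0.29 in interphase. Every mitosis library with DOX was above both withdrawn ones, but the difference of 1.19 ± 0.57 (SE) was not called (limma adjusted p = 0.117). In interphase the difference of 4.50 ± 0.57 was called (limma adjusted p = 4.35e-07). The 10 highest peaks were picked by their interphase heights with DOX, so their interphase differences are a description and not a test. Mycn had 6 far Lost peaks nearest to it in all.

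The peak 194 kb from the start of Uqcrb, which encodes a subunit of respiratory complex III, lay at chr13:66811801-66812550. Its heights were 0.40, 0.27, 0.24 and 0.58 in mitosis with DOX, and 2.87, 3.83, 3.82 and 5.24 in interphase with DOX. The peak 164 kb upstream of Klf6, a Krüppel-like zinc finger gene, lay at chr13:5696551-5697000 and had -1.03, -0.68, -0.40 and 0.71 in mitosis with DOX, against 2.60, 4.14, 3.45 and 5.43 in interphase with DOX. Its mitosis minus interphase difference, -4.25, was close to the most negative of the 2220. The peak 123 kb upstream of Sall1, a Spalt-family zinc finger gene, lay at chr8:91690801-91691250 and had 0.14, 0.08, 0.22 and 0.39 in mitosis with DOX, against -3.22 and -0.50 in mitosis after withdrawal. That difference, 2.06 ± 0.68, was called (limma adjusted p = 0.0351), with 0 reads in the first withdrawn library. The peak 93.6 kb upstream of Foxn2, a forkhead gene, lay at chr17:88745851-88747050 and had 0.59, -0.09, 0.39 and 0.63 in mitosis with DOX, against -1.31 and -0.92 after withdrawal. These groups did not overlap, yet the difference of 1.49 ± 0.58 was not called (limma adjusted p = 0.0588).

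The peak 96.7 kb upstream of Rpl38, a ribosomal protein gene, lay at chr11:114432901-114433500. It held 2.93, 4.24, 3.41 and 4.71 in interphase with DOX, against -3.99 and -1.60 in interphase after withdrawal. That difference, 6.62 ± 0.68 (limma adjusted p = 1.49e-07), used the heights that picked the peak. In mitosis it held 0.05, 0.70, 0.31 and 0.18 with DOX, against -3.48 and -1.0 after withdrawal, a difference of 2.55 ± 0.68 (limma adjusted p = 0.0154). Without the first withdrawn mitosis library the mitosis difference was 1.31 and was not called (limma adjusted p = 0.656). The other 4 of the 10 highest peaks lay near Tenm3 and Cacna2d3, which encode a teneurin and a calcium channel subunit, and near Tbl1xr1 and Nmur2, which encode a corepressor subunit and a neuromedin receptor. All 10 were class 4, the class that stood higher in both states. In mitosis 4 of them, near Sall1, Rpl38, Nmur2 and Cacna2d3, were called higher with DOX. That stands beside 20.4% of class 4 far Lost peaks and 22.4% of all peaks.

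**Figure D3:**
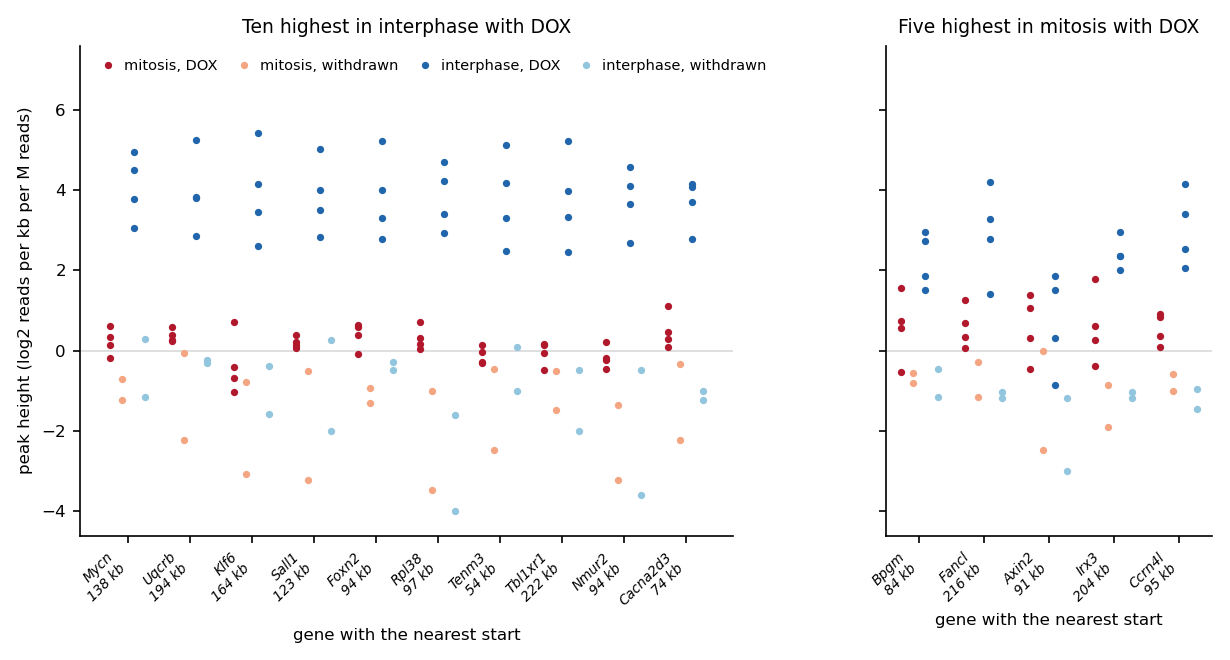
Heights (log2 reads per kb per M reads) of the 10 far Lost peaks with the highest mean interphase height and the 5 with the highest mean mitosis height, each named by its nearest gene, in every library. Points are libraries, coloured by group; the peak near Mycn spans -0.17 to 0.62 in mitosis with DOX and 3.06 to 4.94 in interphase with DOX.

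The 5 far Lost peaks with the highest mitosis means lay near Bpgm, Fancl, Axin2, Irx3 and Ccrn4l. The peak near Bpgm, a gene of red cell metabolism, lay at chr6:34509151-34510650 and had 1.57, 0.57, -0.52 and 0.74 in mitosis with DOX, against -0.80 and -0.55 after withdrawal. The peak near Irx3, an Iroquois homeobox gene, lay at chr8:94528801-94529400 and had 1.79, 0.27, -0.37 and 0.61 with DOX, against -1.89 and -0.84 after withdrawal. It was the only one of the 5 called in mitosis, with a difference of 1.94 ± 0.58 (limma adjusted p = 0.0238), beside 22.4% of all peaks. The 5 were picked by their mitosis heights with DOX, so this call is a description. At the Irx3 peak the first withdrawn mitosis library held 3 reads. The peak 91.5 kb downstream of Axin2, a feedback inhibitor of Wnt signalling, lay at chr11:108872701-108873600 and had the smallest gap between the states. It stood at -0.45, 1.05, 1.40 and 0.32 in mitosis with DOX, against -0.86, 1.51, 1.87 and 0.32 in interphase with DOX. The mean difference was -0.13, although the peak is classed as Lost. By replicate number, mitosis stood above interphase in library 1, below it in libraries 2 and 3 and level with it in library 4. Interphase libraries 1 and 4 with DOX held only 29 and 12 reads there.

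The widest peak, 6300 bp and class 5, lay 74.7 kb upstream of Serp2 at chr14:77028001-77034300 and had -1.07, -1.02, -0.80 and -1.15 in mitosis with DOX, against -1.26 and -1.15 after withdrawal. Its mitosis libraries hardly differed between the states (0.19 ± 0.67, limma adjusted p = 0.807). The next 3 peaks were picked after their values were seen. The only class 5 peak called in mitosis lay 51.8 kb from Foxp4, a forkhead gene, at chr17:48112651-48114150. It had -1.45, -1.30, -1.13 and -1.86 with DOX, against -4.95 and -3.09 after withdrawal, a difference of 2.58 ± 0.93 (limma adjusted p = 0.0453). The largest mitosis difference, 3.39 ± 0.76, was at chr15:97413151-97413600, 123 kb from Rpap3, where mitosis heights were -0.92, 0.50, -0.31 and 0.53 with DOX and -3.22 and -3.67 after withdrawal (limma adjusted p = 0.00743). A peak at chr1:121050001-121050450 near Gli2, which encodes a Hedgehog effector, had 0.08, 0.03, 0.60 and -0.12 with DOX, against -3.06 and -2.35 after withdrawal (2.86 ± 0.67, limma adjusted p = 0.00913). At these 3 called peaks every mitosis library with DOX stood above both withdrawn ones. The first withdrawn mitosis library held no read at the Foxp4 and Rpap3 peaks, where -4.95 and -3.22 are the height of 0.9 read. The size of those differences therefore rests in part on an empty peak.

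When peaks within 12.5 kb were joined, the 2220 peaks formed 1829 groups. Of these, 1559 held 1 peak, 270 held at least 2 and 79 held at least 3. The largest group held 11 peaks in 38.6 kb at chr12:88135651-88174200, between Lrrc74a and Irf2bpl, and began 273 kb past the end of the Esrrb gene itself. Esrrb was not the gene with the nearest start for any of the 2220 peaks. Of the 11 peaks, 10 were class 4. Their heights with DOX ranged from -2.54 to 0.02 in mitosis, with a median of -0.29, and from -0.04 to 2.55 in interphase, with a median of 2.09. After withdrawal the medians were -2.20 in mitosis and -2.37 in interphase. In mitosis 3 of the 11 were called higher with DOX (beside 22.4% of all peaks), and 2 Bookmarked peaks lay within 12.5 kb of the group.

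The next group, between Nrf1 and Ube2h, held the 8 peaks at chr6:30103201-30146400 and shares its flanks with the microRNAs printed above. It ran from the end of Nrf1, which encodes a respiratory transcription factor, into a gap of 57.8 kb before Ube2h, which encodes a ubiquitin-conjugating enzyme. All 8 were class 5. With DOX their heights ranged from -2.41 to -0.77 in mitosis, with a median of -1.65, and from 0.42 to 1.96 in interphase, with a median of 1.00. After withdrawal they ranged from -3.15 to -1.84 in mitosis and from -3.96 to -2.01 in interphase. None was called in mitosis (beside 1 of the 1120 class 5 far Lost peaks and 22.4% of all peaks), and no Bookmarked peak lay within 12.5 kb. RefSeq's GRCm38 table lists 6 genes between the same flanks, the 3 microRNAs and 3 long noncoding RNAs.

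The group on chromosome 18 was 1 of 6 groups of 5 peaks, and of these 6 it had the highest median interphase height with DOX. It held its peaks in 17.0 kb at chr18:61780351-61797300, between Csnk1a1, a kinase of the Wnt pathway, and Il17b, a cytokine. Directly past its end, at chr18:61797301-61798050, a class 5 Lost peak was left out by the 50 kb rule, at 49.9125 kb from Il17b. All 5 peaks kept were class 4. Their heights with DOX ranged from -0.78 to 0.04 in mitosis, with a median of -0.25, and from 1.17 to 2.87 in interphase, with a median of 2.41. In mitosis 1 of the 5 was called higher with DOX (beside 22.4% of all peaks), and 1 Bookmarked peak lay within 12.5 kb. The same interval in the RefSeq table holds Mir143 and Mir145a and 4 long noncoding RNAs.

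**Figure D4:**
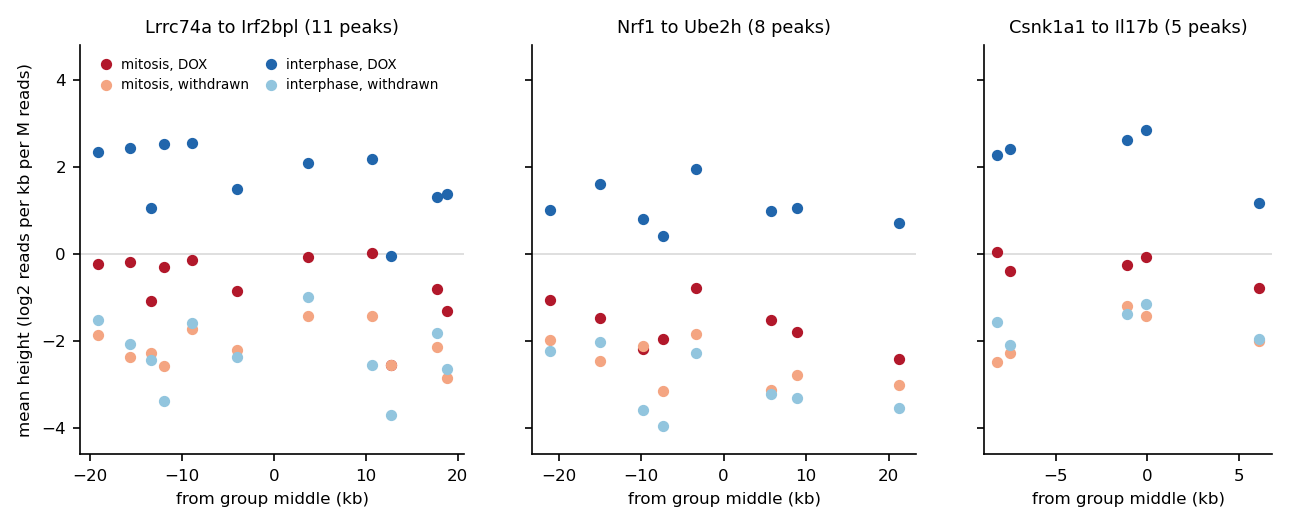
Mean height (log2 reads per kb per M reads) of each far Lost peak in the groups of 11 and 8 peaks and in 1 of the 6 groups of 5 peaks, against distance in kb from the group's middle; colours mark the 4 ChIP groups. With DOX the group of 11 peaks has a median of -0.29 in mitosis and 2.09 in interphase, and the group of 8 has -1.65 in mitosis and 1.00 in interphase.

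A set of lists named genes of pluripotency, signalling and other lineages. Of their 167 genes in the table, 37 had a far Lost peak nearest to them, with 79 such peaks in all. All 79 were called higher with DOX in interphase, with differences between 2.32 and 6.02, and 13 were called in mitosis, beside 99.6% of all peaks in interphase and 22.4% in mitosis. Sox2, a core pluripotency factor, had 3 of them. The one 77.7 kb downstream, at chr3:34626451-34626900, stood at 0.33, -0.22, 0.16 and 0.16 in mitosis with DOX and at 1.70, 1.98, 2.01 and 1.32 in interphase with DOX. In mitosis after withdrawal it stood at -1.06 and -1.87, below every library with DOX (1.57 ± 0.55, limma adjusted p = 0.0419). The one 95.3 kb upstream, at chr3:34452901-34454400, was not called in mitosis, nor was the class 5 peak 137 kb downstream.

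Other pluripotency genes with several far Lost peaks were Zfp281 and Tbx3 with 6 each and Sall4 with 3, and in mitosis 3, 1 and 1 of these were called. Tfap2c, a trophoblast and germline factor, had 5, of which 1 was called. Klf4, a naive pluripotency factor, had 2 upstream, both class 5 and neither called in mitosis. Spry4, which encodes an inhibitor of receptor tyrosine kinase signalling, had 3. The one 79.5 kb downstream, at chr18:38680951-38681850, was called in mitosis (2.70 ± 0.79, limma adjusted p = 0.0225), at -0.98, 0.79, 0.07 and 0.07 with DOX, against -4.22 and -1.21 after withdrawal. The first withdrawn mitosis library held no read at this peak, so -4.22 is the height of 0.9 read. The lowest library with DOX, at -0.98, stood little above the other withdrawn one, at -1.21. Myc, the proto-oncogene, had 2 downstream. The class 4 peak at chr15:61923601-61924650, 107 kb from the start, was called in mitosis (1.91 ± 0.67, limma adjusted p = 0.0418), at -0.75, 0.44, -0.06 and -0.63 with DOX and -3.29 and -1.04 after withdrawal.

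The nearest genes were then read in the RNA libraries. The 2220 peaks pointed to 1251 nearest genes, of which 801 had 1 such peak, 231 had 3 or more and 67 had 5 or more. Of the 1251 genes, 983 passed the filter on low exonic counts (78.6%, against 69.4% of all 20300 genes), and 651 (52.0%) were also the nearest gene of some other Esrrb peak. Nearness is the only link drawn here, and whether a peak acts on its nearest gene was not tested.

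Averaged over the 3 phases, 93 of the 983 nearest genes fell after withdrawal (9.46%, beside 8.47% of all 14092 genes tested) and 102 rose (10.4%, beside 8.43%), by edgeR's quasi-likelihood test with Benjamini-Hochberg adjustment. The share that fell lay near the background and the share that rose lay above it, a difference that was not tested. The median log2 change was 0.02 for nearest genes and -0.00 for all genes. The median size of a called change was -0.47 among falls and 0.50 among rises, and 14 falls and 7 rises exceeded 1 on the log2 scale. With the replicate number as a block, 182 fell and 218 rose (beside 18% of all genes in each direction). This average treats the 3 phases of one number as separate samples. With counts summed over the phases, so that 3 libraries met 3, edgeR called 0 falls and 4 rises among 1032 nearest genes (beside 0.101% and 0.0539% of all genes). The 4 rises were Ccnd2, Epas1, Foxp1 and Chd7. At an unadjusted p below 0.05 the count was 176 of the 1032, beside 2073 of all 14847 genes tested. With the block added 60 fell and 104 rose (beside 5.02% and 6.66%).

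Within single phases few nearest genes were called by edgeR's test. In early G1, Ass1 and Ncs1 fell and Ccnd2 and Epas1 rose, 2 in each direction beside 0.121% and 0.0426% of all genes. In late G1 3 fell, Ass1, Gjb5 and Pdk4, and 7 rose, beside 0.277% and 0.185%. In G2 10 fell and 9 rose, beside 0.632% and 0.341%. With the replicate block the counts were 30 and 31 in early G1 (beside 2.2% and 1.83%), 41 and 82 in late G1 (beside 4.24% and 4.8%) and 61 and 86 in G2 (beside 5.44% and 5.77%). Ass1, which encodes argininosuccinate synthase, had between 98.7 and 117 CPM with a median of 105 after withdrawal, against between 141 and 161 with a median of 155 with DOX. Its 9 withdrawn libraries all lay below its 9 libraries with DOX. The edgeR interaction tests for the 3 pairs of phases called 0 nearest genes and 0 of all genes. Of the 983 nearest genes, 2, 3 and 1 had an unadjusted p below 0.05. The counts within phases moved with single libraries: leaving out any 1 of the 6 libraries of early G1 gave 0 or 1 falls and 0 or 1 rises, any 1 of late G1 gave 0 to 4 falls and 2 or 3 rises, and any 1 of G2 gave 0 to 8 falls and 3 to 12 rises.

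Intronic reads, which come largely from unspliced transcripts, gave fewer calls. Averaged over phases, 21 of 1002 nearest genes tested fell (2.10%, beside 1.62% of all genes) and 43 rose (4.29%, beside 1.95%). Genes called in both introns and exons numbered 39, with 13 falls and 26 rises, all in the same direction in both. With counts summed over the phases edgeR called 0 intronic changes (beside 0.0% in each direction). At an unadjusted p below 0.05 the count was 108 of 1040, beside 1007 of all 14966 genes tested. The falls dropped to 12 or 13 without early G1 withdrawn library 3, early G1 DOX library 1 or late G1 DOX library 1. The rises dropped to 20 to 28 without any of these or without early G1 DOX library 2, late G1 withdrawn library 3, late G1 DOX library 2 or G2 DOX library 2.

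The genes that fell most after withdrawal included regulators and metabolic enzymes. Gata6, a primitive endoderm factor with 3 far Lost peaks at 74.8 to 165 kb, had 0.294 to 1.02 CPM with a median of 0.414 after withdrawal, against 0.912 to 1.98 CPM with a median of 1.67 with DOX (log2 change -1.38 ± 0.24, edgeR adjusted p = 0.00097). It is 1 of 3 defining primitive endoderm markers, whose sum was 1.26 to 2.48 CPM after withdrawal and 1.95 to 5.07 CPM with DOX, and the part of such cells in its fall was not tested. Pdk4, an inhibitory kinase of pyruvate dehydrogenase, had 3.19 to 6.43 CPM with a median of 4.56 after withdrawal, against 7.89 to 11.1 CPM with a median of 9.42 with DOX. Its groups did not overlap (-1.07 ± 0.13, edgeR adjusted p = 7.6e-05), and its 1 far Lost peak, class 5 at chr6:5526301-5527950, stood at 0.75, 2.05, 1.45 and 3.47 in interphase with DOX. Jdp2, an AP-1 family repressor, had a median of 6.60 CPM after withdrawal and 12.5 with DOX (-1.12 ± 0.19, edgeR adjusted p = 0.000934). Its introns fell as well, by 0.87 (edgeR adjusted p = 0.000776).

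Zfpm1, a cofactor of GATA factors with 5 far Lost peaks, had a median of 1.72 CPM after withdrawal and 4.25 with DOX (-1.18 ± 0.18, edgeR adjusted p = 0.000362). Serp2, a relative of the stress-associated endoplasmic reticulum protein genes, also had 5 and lay beside the widest peak. Its 9 withdrawn libraries held 1.15 to 3.37 CPM, all below the 3.38 to 5.35 CPM of its 9 libraries with DOX (-1.11 ± 0.17, edgeR adjusted p = 0.000415). The other 5 of the 10 largest falls were Trim29, Slco2a1, Moxd1, 6030419C18Rik and Igsf21, with log2 changes between -1.27 and -1.08. The 10 genes had 23 far Lost peaks nearest to them, 6 of class 4 and 17 of class 5, none of them called in mitosis. The shares called in mitosis were 20.4% of class 4 and 0.0893% of class 5 far Lost peaks, and 22.4% of all peaks.

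The genes that rose most after withdrawal were led by Bcl11a, a zinc finger factor near the limit of detection, with 0.167 to 1.5 CPM and a median of 0.777 after withdrawal, against 0 to 0.470 CPM and a median of 0.158 with DOX (2.51 ± 0.57, edgeR adjusted p = 0.00625). Ccnd2, which encodes the G1 cyclin D2, had 18.1 to 30.5 CPM with a median of 23.8 after withdrawal, against 2.73 to 8.27 CPM with a median of 6.27 with DOX. The groups were far apart (2.13 ± 0.18, edgeR adjusted p = 3.29e-06), and the rise held in each phase, at 1.87, 2.14 and 2.38 in the order early G1, late G1, G2. Its 1 far Lost peak, class 5 and 99.1 kb upstream at chr6:127199251-127201050, had -1.76, -0.75, -0.81 and -0.76 in mitosis with DOX, against 0.90, 2.61, 1.34 and 3.33 in interphase with DOX. Epas1, which encodes the hypoxia-inducible factor HIF-2 alpha, had 24.4 to 46.6 CPM with a median of 29.4 after withdrawal, against 9.37 to 14.2 CPM with a median of 13.4 with DOX (1.32 ± 0.13, edgeR adjusted p = 9.87e-06). Its class 4 peak 82.8 kb upstream, at chr17:87070201-87070650, had 1.88, 2.50, 2.21 and 3.46 in interphase with DOX, against -3.58 and -0.73 after withdrawal. The ChIP libraries were taken 48 h and the RNA libraries 24 h after withdrawal, so the peak and gene values come from different times.

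Foxp1, a forkhead gene, had 59.6 to 96.2 CPM with a median of 73.0 after withdrawal, against 31.7 to 46.9 CPM with a median of 38.5 with DOX (0.98 ± 0.10, edgeR adjusted p = 1.74e-05). Its peak 106 kb upstream, at chr6:99490651-99491250, was uneven, at 1.56, 3.05, 2.16 and -0.68 in interphase with DOX. Myc had 11.1 to 23.8 CPM with a median of 12.3 after withdrawal, against 5.09 to 8.75 CPM with a median of 6.33 with DOX (1.08 ± 0.15, edgeR adjusted p = 0.000195). Tenm4, a teneurin gene, had 33.5 to 121 CPM after withdrawal and 16.5 to 34.7 CPM with DOX, and these ranges met (1.08 ± 0.18, edgeR adjusted p = 0.000883). Cd96, Tril and Creb5 were also among the 10 largest rises. The 10 genes together had 13 far Lost peaks, 7 of class 4 and 6 of class 5, and 2 of the 13 were called in mitosis. The shares called were 20.4% of class 4 and 0.0893% of class 5 far Lost peaks, and 22.4% of all peaks. With so few peaks, a contrast between the genes that fell and those that rose was not tested.

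**Figure D5:**
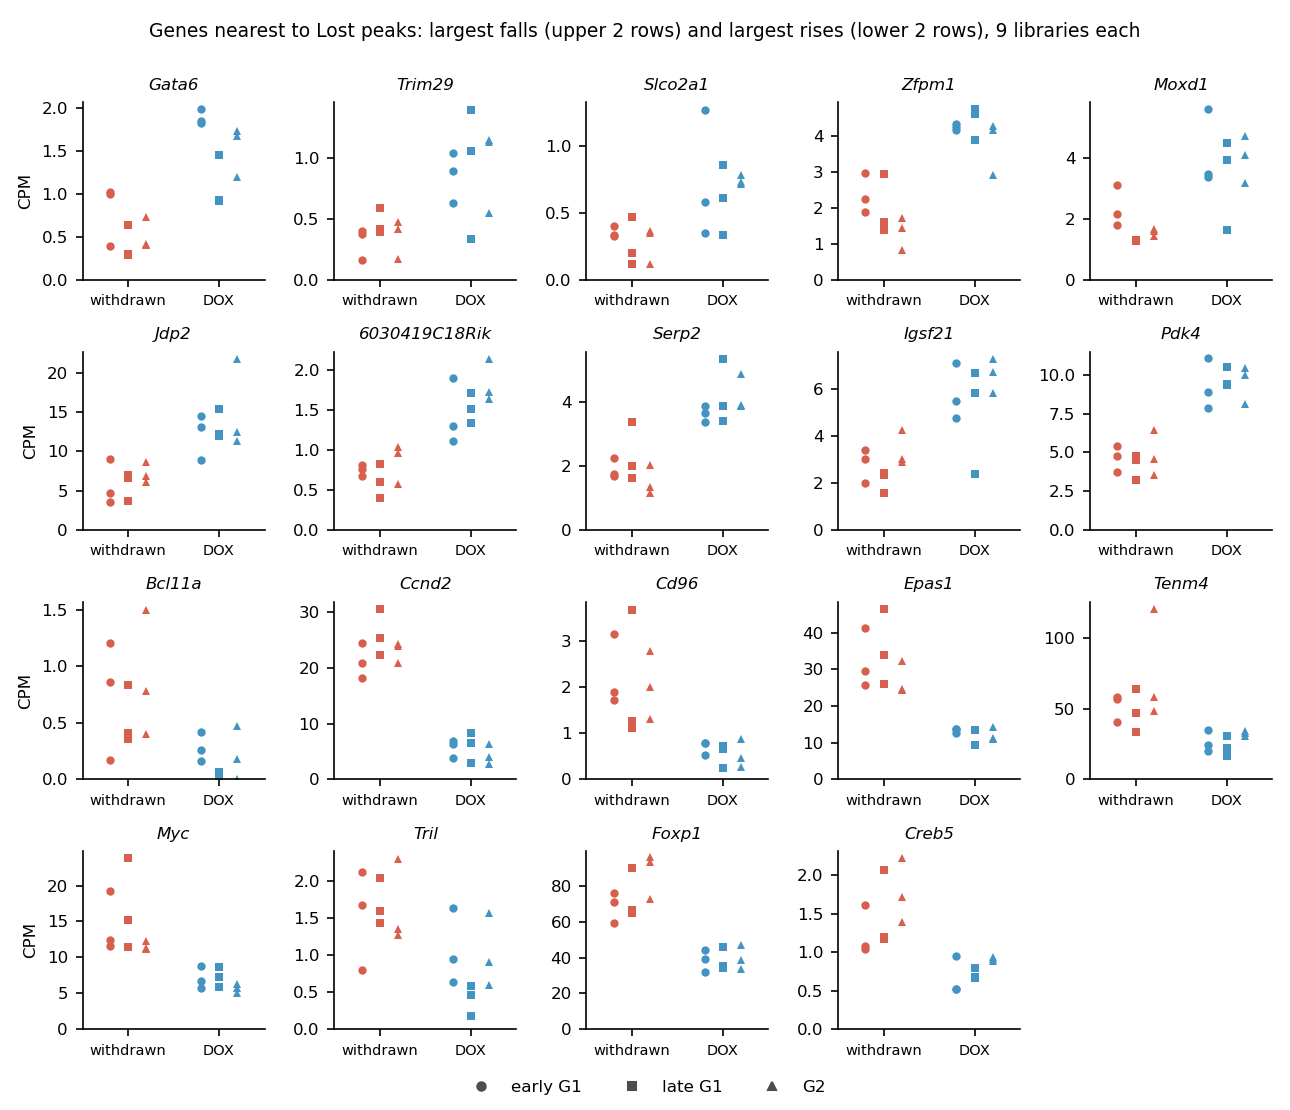
Exonic CPM of the 10 nearest genes with the largest falls (upper rows) and 9 of those with the largest rises (lower rows) in every RNA library, withdrawn left of DOX. Each point is a library, coloured by DOX state, and its shape marks the phase; Ccnd2 spans 18.1 to 30.5 CPM after withdrawal and 2.73 to 8.27 CPM with DOX.

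The gene with the most far Lost peaks was Bcor, a subunit of a Polycomb complex, with 14 at 88.3 to 352 kb on the X chromosome, 3 of them class 4. Bcor rose after withdrawal, with 59.4 to 85.0 CPM and a median of 71.0, against 33.4 to 63.9 CPM and a median of 46.9 with DOX (0.62 ± 0.12, edgeR adjusted p = 0.00287). Sulf2, Tle3 and Vrk1 had 12 peaks each and 1810013L24Rik had 11, and none of these 4 was called (edgeR adjusted p = 0.698, 0.29, 0.817 and 0.136), though 1810013L24Rik was with the replicate block (edgeR adjusted p = 0.000203). Over the 193 tested genes with 3 or more far Lost peaks, 19 fell and 23 rose (9.84% and 11.9%, beside 8.47% and 8.43% of all genes). Mycn, beside the highest peak, had a change of 0.22 ± 0.18 (edgeR adjusted p = 0.423, or 0.0141 with the block and 0.102 with summed counts and block). Of the genes that flank the 3 groups of peaks described, Csnk1a1 fell (-0.25 ± 0.08, edgeR adjusted p = 0.0442). The call for Csnk1a1 was lost with summed counts (edgeR adjusted p = 0.478), with summed counts and block (0.0875) and with some single libraries left out (up to 0.147). Nrf1, Ube2h, Irf2bpl and Il17b were not called (edgeR adjusted p = 0.61, 0.937, 0.173 and 0.659) and Lrrc74a did not pass the filter. With the replicate block Irf2bpl was called (edgeR adjusted p = 0.0269), but not with summed counts and block (0.225). Rpl38 was not called either (edgeR adjusted p = 0.204, or 0.0329 with the block and 0.366 with summed counts and block), and its counts are uncertain because ribosomal protein genes have many near-identical pseudogenes.

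Counts for the listed genes were small. Of 35 tested, 6 fell and 5 rose averaged over phases by edgeR's test, beside 8.47% and 8.43% of all genes, with a median of -0.01 beside -0.00 for all genes. In the naive pluripotency list, with a median change of -0.24, 2 of 5 fell, Klf4 (-0.35 ± 0.10, edgeR adjusted p = 0.0258) and Tbx3 (-0.66 ± 0.19, edgeR adjusted p = 0.0234), while Klf5, Prdm14 and Nr5a2 were not called. Klf4 had a median of 31.1 CPM after withdrawal and 40.7 with DOX, while Tbx3 reached at most 21.6 CPM after withdrawal and 40.3 with DOX, and both genes' libraries overlapped between the states. In the core pluripotency list, with a median of 0.33, 1 of 4 rose, Sall4, with 126 CPM after withdrawal and 95.8 with DOX at the median (0.42 ± 0.10, edgeR adjusted p = 0.00768). Sox2 had medians of 175 CPM after withdrawal and 158 CPM with DOX (-0.02 ± 0.20, edgeR adjusted p = 0.961). Zfp281 was called with the replicate block (edgeR adjusted p = 0.00128) and not without it (edgeR adjusted p = 0.138) or with summed counts and block (0.0706).

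Among LIF and STAT3 targets, with a median change of -0.26, 3 of 5 fell, namely Klf4, the kinase gene Pim1 and the immediate early gene Fos. Fos had 8.61 to 19.3 CPM with a median of 13.7 after withdrawal, against 18.3 to 31.7 CPM with a median of 25.8 with DOX (-0.84 ± 0.12, edgeR adjusted p = 0.000195). In the FGF and ERK feedback list, with a median of 0.31, 3 of 7 rose, Spry4, Spred2 and Myc, and Dusp5 fell. Spry4 had 30.2 to 49.9 CPM with a median of 40.8 after withdrawal, against 19.5 to 28.4 CPM with a median of 25.1 with DOX, with no overlap (0.69 ± 0.09, edgeR adjusted p = 0.00014). Of 6 formative and primed genes, with a median of 0.25, 1 rose, Myc again, and the 3 Wnt pathway genes, Axin2, Tcf7l2 and Ctnnb1, were not called and had a median of -0.01. In the trophoblast list, with a median of -0.03, 1 of 4 rose, Gata3 (0.85 ± 0.25, edgeR adjusted p = 0.0268). Gata3 was near the limit of detection. It is 1 of 3 defining trophoblast markers, whose sum was 0.722 to 2.10 CPM after withdrawal and 0.416 to 1.48 CPM with DOX. The 1 tested gene of the primitive endoderm list, Gata6, fell. The lists of 2-cell-like, mesendoderm, neural and fibroblast genes had none called among 0, 0, 1 and 2 tested.

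Peaks beside genes that fell, rose or were not called differed little. The 169 peaks of the 93 genes that fell lay a median of 97.9 kb from the start, with 45% of class 4, a median interphase height with DOX of 1.39 and 11.8% called in mitosis. The 194 peaks of the 102 genes that rose lay a median of 106 kb away, with 48.5% of class 4, a median height of 1.55 and 10.8% called. The 1412 peaks of the 788 genes not called lay a median of 113 kb away, with 51.4% of class 4, a median height of 1.57 and 10.9% called. These shares are given as a description, since peaks of 1 gene share their target.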

How the data were processed

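Esrrb ChIP-seq was available for 12 libraries and RNA sequencing for 18. The authors deposited peak heights as log2 of reads per kb of peak per M reads (M, 1000000), with an empty peak set to 0.9 read. Whole reads were recovered from all heights (tolerance 0.05 read). RNA was deposited by the authors as exonic and intronic read counts per gene. The submitters' processing notes name mm9, Bowtie, CASAVA 1.8 and DESeq2 without saying for which step. No source used here gives the strand setting of the counting. Height columns headed noco, which no label uses, were read as mitosis libraries by their number. The 4 pooled height columns were not used. Of the gene symbols, 27 that a spreadsheet had turned into dates were restored through their RefSeq accessions. Of the intronic lines, 2377 held no counts.

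Heights were compared with limma 3.58.1 (trend, 4 groups, 14559 peaks). Counts were compared with edgeR 4.0.16 (filterByExpr, TMM, quasi-likelihood test, 6 groups) over 14092 genes in exons and 14075 in introns. R was 4.3.3, Python 3.11.15 and DESeq2 1.42.0. P-values were adjusted by Benjamini-Hochberg over the whole table, at a threshold of 0.05. The scripts were tested on simulated data. Distances run from a peak's centre to a gene's start. Same-number RNA libraries deviated together in exons in each of 9 same-phase pairs (r between 0.114 and 0.527, across genes), a pairing read from the data. Alternatives were edgeR on the recovered reads, another scaling and filter, DESeq2, the replicate block, leaving out each library, and counts summed over phases, which was added after the data were seen. The sampling depth limits peaks with few reads, and no interval is given for them.

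Named peaks are the 10 highest in interphase and 5 highest in mitosis with DOX, those at the distance limit, and the widest. Named genes are the 10 largest called falls and rises, the 5 with most peaks, genes beside 3 of the largest groups (of 6 tied at 5 peaks, the one highest in interphase) and genes of the lists. Some of these are not reported here. The members, lists and rules were chosen with earlier results of these data known.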

Additional observations from a re-analysis of the deposited data

Results flagged for a closer look

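Among 40 groups of 4 libraries tested for a single library standing apart (Dixon's test at 95%), 2 passed, and chance gives about 1 in 20. In mitosis with DOX, library 1 had the lowest median height of the far Lost peaks, -1.03, while the other 3 lay between -0.62 and -0.57 (gap over range 0.905). At the widest peak, near Serp2, interphase library 4 with DOX was the highest at 2.01, while the other 3 lay between 0.86 and 0.96 (gap over range 0.912).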

How the results depend on the processing

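The interphase difference held at 2130 to 2220 peaks with each library left out, and 45 were called after centring each library on its median over all peaks. That centring took out a shift shared by all peaks and reversed the interphase difference at the peaks near Bpgm (-0.59), Axin2 (-0.85), Irx3 (-0.13) and Serp2 (-0.76). The mitosis count of 225 ran from 0 to 796 with a library left out. It was 6 without trend, 0 after centring, 0 with 0.5 added, 0 by edgeR, 14 without E14Tg2a and 528 with the replicate block. ChIP numbers were not taken as paired, since withdrawn groups share only 2 numbers with DOX groups. Without DOX, 0 peaks were called in all settings.

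Falls and rises of nearest genes in exons, 2 and 2 in early G1, were 30 and 31 with the block, 8 and 9 by DESeq2, 0 and 1 with that phase alone, 0 and 0 for peaks over 100 kb away, and 0 to 1 and 0 to 1 with a library left out; without a low-count filter falls were 1. The 3 and 7 of late G1 were 41 and 82, 16 and 31, 0 and 0, 0 and 3, and 0 to 4 and 2 to 3 in that order. The 10 and 9 of G2 were 61 and 86, 21 and 30, 1 and 4, 4 and 4, and 0 to 8 and 3 to 12. The 93 and 102 of the mean were 182 and 218 with the block, 0 and 4 with summed counts, 47 and 54 over 100 kb, and 66 to 96 and 81 to 135 with a library left out; summed counts with the block gave 60 falls. The 21 and 43 of 1002 in introns were 83 and 142 with the block, beside 1047 and 1099 of all 14075 genes. With summed counts they were 0 and 0. With summed counts and block they were 24 and 50 of 1040, beside 220 and 301 of all 14966 genes. They were 13 and 27 over 100 kb, and 12 to 24 and 20 to 45 with a library left out. DESeq2 gave 32 falls. In introns all 9 same-phase pairs of one number also had r above 0, between 0.0916 and 0.439. The main tests in exons and in introns used no block. Peaks over 100 kb and summed counts leave fewer genes or samples; the cause of the other shifts was not tested. Of 35 called named genes, 35 held by DESeq2 and by the block, 25 with summed counts and block, and 3 (Ccnd2, Epas1 and Foxp1) with summed counts. Few reads per peak in the first withdrawn libraries limit the mitosis comparison.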
